A study of Mus musculus with 4 samples.

Results

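Ribosomal protein genes were described in RNA of mouse cortex pooled with corpus callosum on postnatal day 15, in 2 Pdgfra-creER;SmoM2 samples and 2 wild type (WT) samples. The members were taken by gene symbol (Rpl, Rps, Rplp and Rpsa for the cytosolic ribosome, Mrpl and Mrps for the mitochondrial ribosome), with names of pseudogenes and of S6 kinases left out and a mean expression level of at least 1 over the 4 samples. This gave 41 genes of the 5282 in the deposited table, 29 of them cytosolic and 12 mitochondrial. The level minimum removed no gene, since the lowest mean level among genes of these names was 20.1, that of Mrpl39. By the same names, 27 of 86 annotated protein-coding cytosolic genes (31.4%) and 12 of 78 mitochondrial ones (15.4%) had a row, beside 4807 of 21951 protein-coding genes in all (21.9%). The other 2 cytosolic members, Rps4l and Rpl37rt, are annotated as pseudogenes.

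Mice of both groups were given tamoxifen on postnatal days 5 to 7. The SmoM2 allele encodes Smoothened, the transducer of hedgehog signals, in a mutant form that needs no ligand. Pdgfra-creER is a tamoxifen-inducible recombinase driven from Pdgfra, a gene of oligodendrocyte precursors and also of fibroblasts, so recombination was targeted to a part of the cells in the tissue while RNA was measured in all of them. In such bulk samples fewer cells of a type and less RNA per cell cannot be told apart. Smo itself was at 7.12 and 5.75 in WT and at 10.73 and 10.96 in SmoM2.

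The cytosolic ribosome translates the messages of the nucleus. Assembly of its proteins on ribosomal RNA begins in the nucleolus, and their messages share a terminal oligopyrimidine start through which mTOR and LARP1 set their translation. The mitochondrial ribosome has a protein set of its own, encoded in the nucleus, and translates the few messages of the mitochondrial genome, which encode subunits of the respiratory chain. Cells of the oligodendrocyte lineage draw on both, for myelin proteins and for energy.

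The table holds an expression level per sample, judged from the values to be scaled for gene length and library size but with no stated unit (TPM or FPKM), and the authors' own fold change and p-values. Every gene in it has an unadjusted p of at most 0.05, so by its values the table lists only such genes. The series text names a log2 fold change cutoff that the table does not meet, as absolute values go down to 0.154. A row in the table is therefore already a selected gene, and members without a row were not analysed here. "Rose" and "fell" are used where the adjusted p given in the authors' deposited table is 0.05 or less, as it is for 1968 genes. That is 3.45% of the 57010 tests that its adjusted p-values imply. Among the 4845 listed genes whose mean level reached 1, 22.0% rose and 16.9% fell. The labels do not say that samples were separate animals, so p-values speak for the spread between these samples only, and depth per sample is unknown because no read counts are given.

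Cytosolic ribosomal protein genes were mostly higher in SmoM2, and 8 of the 12 mitochondrial ones were lower. Of all 4845 listed genes whose mean level reached 1, 52.5% had a positive log2 fold change in the authors' deposited table. Of the 29 cytosolic genes, 26 had a positive log2 fold change in the authors' deposited table and 9 rose, among them Rps4l, Rpl10a, Rplp0, Rpl29, Rpl36, Rps12, Rps2 and Rpsa, while Rpl5 fell. The 9 of 29 stand beside the 22.0% of all listed genes that rose. Of the 12 mitochondrial genes 4 were higher and 8 lower, with Mrps24 the 1 gene that rose and none that fell. Beside these stand the 22.0% of listed genes that rose and the 16.9% that fell, and 12 genes are too few to set the counts apart. By levels, the groups did not overlap for 27 of the 29 cytosolic and 11 of the 12 mitochondrial genes, beside 85.0% of listed genes. Both SmoM2 samples were above both WT samples for 24 cytosolic and 4 mitochondrial genes, beside 49.5% of listed genes. The median log2 fold change was 0.30 for the cytosolic genes, -0.27 for the mitochondrial genes and 0.23 for all listed genes of that level. No listed gene lay near 0, as the table holds none with an absolute log2 fold change below 0.154.

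**Figure D1:**
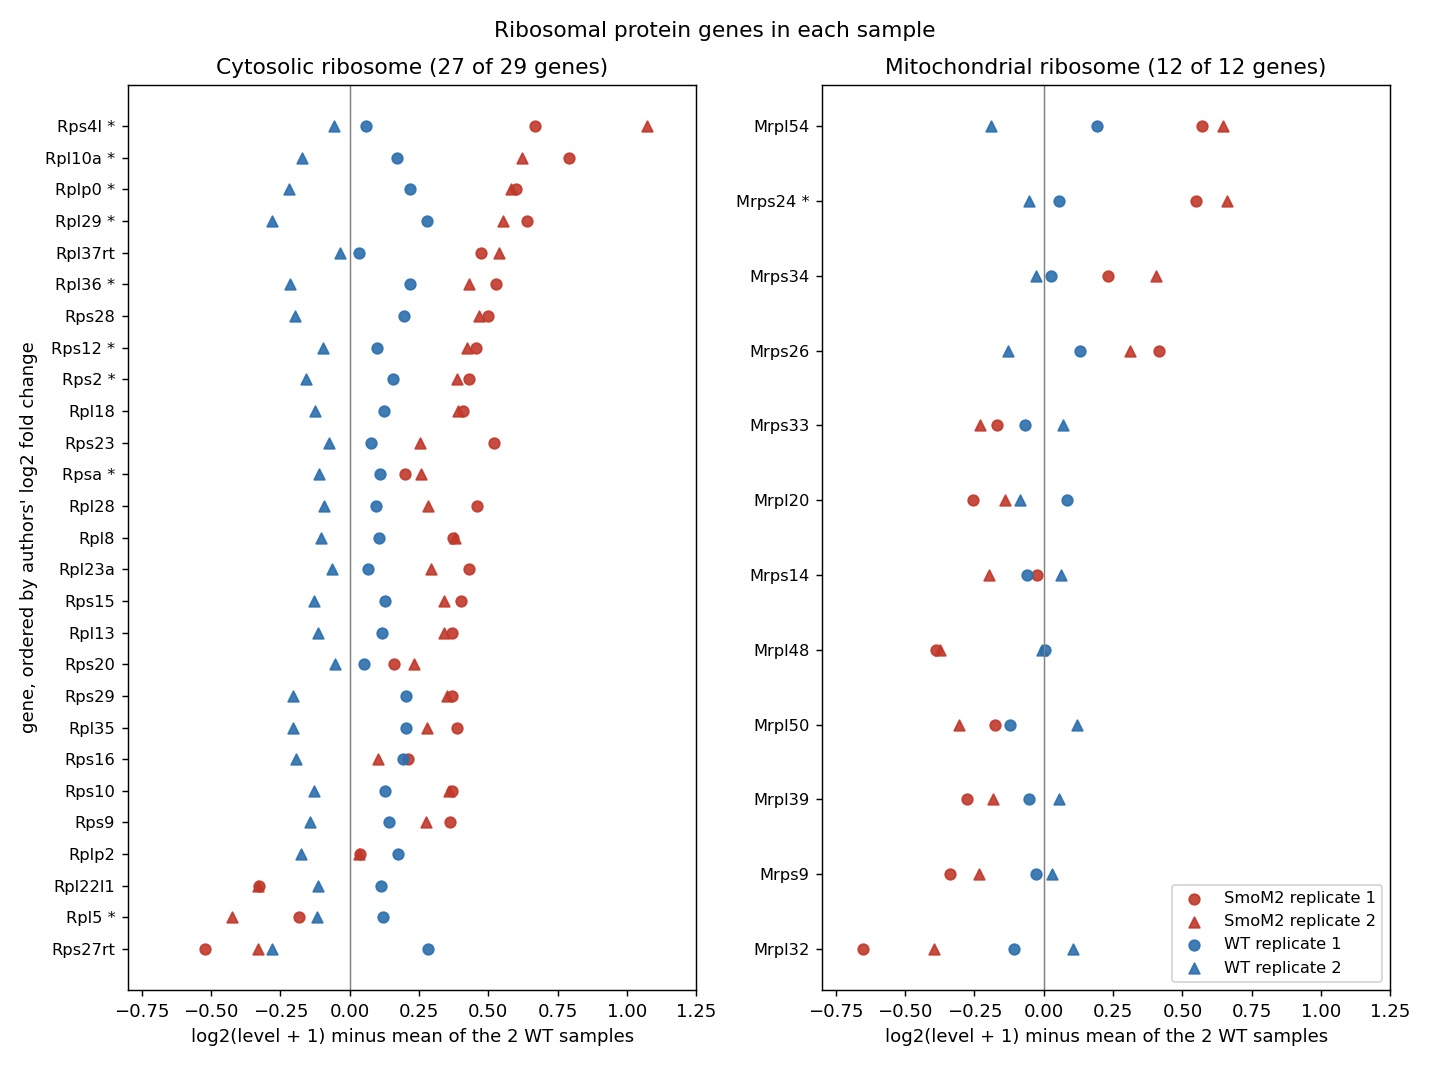
Each row is 1 gene (27 of the 29 cytosolic genes are drawn) and each point 1 sample, as log2(level + 1) minus the mean of the 2 WT samples, with circles for replicate 1, triangles for replicate 2 and an asterisk for genes that rose or fell. On the left, WT replicate 2 lies below WT replicate 1 in every cytosolic gene drawn; on the right, 8 of 12 mitochondrial genes lie to the left of WT on average.

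The libraries differed within the WT group too. The level of each of the 29 cytosolic genes was higher in WT replicate 1 than in WT replicate 2, by a median of 0.26 on the log2(level + 1) scale, whereas the median over all listed genes of that level was -0.07. WT replicate 2 was the lowest of the 4 samples for 26 of the 29. Summed over the 29 genes, levels were 17444 and 14240 in WT and 20886 and 20314 in SmoM2, which is 3.43%, 2.78%, 4.25% and 4.33% of the listed total of each sample. That total includes 13 genes of the mitochondrial genome, which summed to 103479 and 106214 in WT and to 78827.2 and 60994.5 in SmoM2. The shares therefore also depend on those genes. The 12 mitochondrial ribosomal protein genes summed to 936 and 900 in WT and to 923 and 962 in SmoM2, so that their sums overlapped. The median log2 difference of the cytosolic genes was 0.37 from the 4 samples, 0.26 without WT replicate 2 and 0.49 without WT replicate 1.

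In the large cytosolic subunit 13 of 15 listed genes were higher in SmoM2, 5 rose and 1 fell. Rplp0 encodes the base of the stalk that recruits the GTPase translation factors. Its level was 594 and 439 in WT and 774 and 765 in SmoM2, so both SmoM2 samples stood above both WT samples. The log2 difference was 0.59 ± 0.15 (SE, limma on log2(level + 1)), and the authors' deposited table gives 0.49 as log2 fold change with an adjusted p of 2.03e-05. Without WT replicate 2 the difference was 0.37. Rplp2, a partner of Rplp0 in the stalk, read 548 and 430 in WT and 498 and 497 in SmoM2. Both SmoM2 values lay between the WT values, and the authors' log2 fold change of 0.22 (adjusted p = 0.496) in their deposited table stood against a log2 level difference of 0.04 ± 0.13 (SE, limma). That difference was -0.08 with quantile normalization and -0.14 without WT replicate 2.

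Rpl29 was at 790 and 536 in WT and at 1014 and 954 in SmoM2, and rose (adjusted p = 1.63e-04 in the authors' deposited table). The 2 WT values lay further apart than WT replicate 1 lay from either SmoM2 value, and the log2 difference of 0.60 ± 0.18 (SE, limma) was 0.32 without WT replicate 2. Rpl36 was at 988 and 731 in WT and at 1227 and 1145 in SmoM2 (adjusted p = 0.0264 in the authors' deposited table). Its log2 difference of 0.48 went to 0.26 without WT replicate 2 and to 0.27 with quantile normalization. For Rpl29 and Rpl36 the groups were separate and WT replicate 2 was the lowest sample. Rpl13 and Rpl23a, among the large subunit genes of highest level, were higher without passing. Rpl13 averaged 968 ± 110 in WT and 1235 ± 16.6 in SmoM2 (SD, n = 2 each), and Rpl23a, whose protein sits at the mouth of the exit tunnel, averaged 883 ± 55.7 and 1135 ± 76.8. Rpl8, Rpl18, Rpl28 and Rpl35 were likewise separate and higher without passing, at log2 fold changes from 0.26 to 0.33 by the authors' deposited table.

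Rpl5 and Rpl22l1 went the other way. Rpl5 binds 5S ribosomal RNA together with Rpl11, and the same particle holds Mdm2 when ribosome assembly stalls. It read 48.3 and 40.8 in WT and 39.0 and 32.8 in SmoM2, and fell, by the authors' log2 fold change of -0.41 (adjusted p = 0.0193 in the authors' deposited table). The groups did not overlap, but the gap between them was narrower than the spread within each: the log2 difference of -0.30 ± 0.14 (SE, limma) was -0.18 without WT replicate 1 and -0.18 without SmoM2 replicate 2. Rpl22l1, a paralog of Rpl22, read 213 and 182 in WT and 156 and 156 in SmoM2 without passing (adjusted p = 0.065 in the authors' deposited table). Its log2 difference of -0.33 went to -0.22 without WT replicate 1. Rpl5 also had the lowest mean level of the 29 cytosolic genes, 40.2, against a median of 574.

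In the small cytosolic subunit 13 of 14 listed genes were higher, 4 rose and none fell. Rps2, which lines the channel where the message enters, was at 1527 and 1229 in WT and at 1849 and 1794 in SmoM2. It rose (adjusted p = 0.00968 in the authors' deposited table), and its log2 difference of 0.41 ± 0.13 (SE, limma) was 0.25 without WT replicate 2. Rps12 was at 521 and 455 in WT and at 668 and 653 in SmoM2, 0.44 ± 0.10 apart on the log2 scale (SE, limma; adjusted p = 0.0334 in the authors' deposited table). Rps12 changed by more than the spread within either group. Rpsa, known also as the laminin receptor, read 817 and 702 in WT and 869 and 906 in SmoM2 (adjusted p = 0.0141 in the authors' deposited table). Its log2 difference of 0.23 ± 0.11 (SE, limma) was the smallest of the 9 that rose and went to 0.12 without WT replicate 2 and to 0.02 with quantile normalization.

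Rps15 had the highest level of all members. It averaged 1620 ± 203 in WT and 2090 ± 62.6 in SmoM2 (SD, n = 2 each), a log2 difference of 0.37 that went to 0.24 without WT replicate 2, and it did not pass (adjusted p = 0.0816 in the authors' deposited table). Rps29 read 1176 and 887 in WT and 1320 and 1305 in SmoM2, and its log2 difference of 0.36 was 0.16 without WT replicate 2, 0.56 without WT replicate 1 and 0.19 with quantile normalization. Rps9, Rps10, Rps20, Rps23 and Rps28 were higher without passing as well, and the authors' deposited table gives them log2 fold changes of 0.23 to 0.37. Rps16 was the 1 small subunit gene whose groups overlapped, at 213 and 163 in WT and 215 and 200 in SmoM2.

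Several of the cytosolic members have near-identical copies elsewhere in the genome, between which short reads can be divided. The coding sequence of Rpl10a, 651 bases long, is the same at every base as that of the processed pseudogene Rpl10a-ps1, and so is the 252-base coding sequence of Rps27rt and that of its parent Rps27. Rpl37rt differs from Rpl37 at 1 of 291 coding bases. Rps4l keeps 626 of 783 aligned coding bases of Rps4x, 80.0%, with no shared run over 35 bases. The stretches that follow, from the GENCODE M21 transcripts of GRCm38, show how unlike these cases are. They give 90 bases of the parent's coding sequence, counted from the A of the start codon, and the same stretch of the copy, with capitals where parent and copy differ.
Rpl10a, bases 1 to 90: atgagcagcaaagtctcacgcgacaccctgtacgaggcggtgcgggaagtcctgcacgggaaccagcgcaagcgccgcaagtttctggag
Rpl10a-ps1: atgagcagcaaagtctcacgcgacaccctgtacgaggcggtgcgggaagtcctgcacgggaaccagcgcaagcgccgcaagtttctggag
Rpl37, bases 160 to 249: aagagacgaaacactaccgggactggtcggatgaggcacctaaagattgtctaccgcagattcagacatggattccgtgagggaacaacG
Rpl37rt: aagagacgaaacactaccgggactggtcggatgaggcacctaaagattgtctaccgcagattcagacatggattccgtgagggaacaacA
Rps4x, bases 484 to 573: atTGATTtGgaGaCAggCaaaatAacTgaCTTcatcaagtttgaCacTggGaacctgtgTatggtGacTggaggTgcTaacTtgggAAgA
Rps4l: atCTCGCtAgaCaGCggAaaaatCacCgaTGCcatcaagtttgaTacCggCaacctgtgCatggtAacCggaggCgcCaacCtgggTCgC

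The single difference of Rpl37rt is G249A, and the Rps4 stretch, the one with most differences, has 27. Rps4l (chromosome 6, 148354656 to 148355598, GRCm38), a retrocopy of the X-linked Rps4x, had the highest log2 fold change of the 41 members. Its level was 48.0 and 44.2 in WT and 73.8 and 98.0 in SmoM2, with both SmoM2 samples well above WT. The log2 difference was 0.87 ± 0.15 (SE, limma), and the adjusted p = 2.37e-07 in the authors' deposited table, at a log2 fold change of 0.79. Rps4x had no row. GENCODE M21 classes Rps4l and Rpl37rt as transcribed processed pseudogenes. Rpl37rt was at 441 and 420 in WT and at 597 and 626 in SmoM2 without passing (adjusted p = 0.371 in the authors' deposited table). Rps27rt was lower, at 178 and 121 in WT and at 102 and 117 in SmoM2, also without passing.

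Rpl10a and its copy were both listed, in opposite directions. Rpl10a (chromosome 17, 28328471 to 28331033, GRCm38) encodes the protein of the L1 stalk, which contacts the tRNA that leaves the ribosome. Its level was 341 and 268 in WT and 523 and 466 in SmoM2, a log2 difference of 0.71 ± 0.14 (SE, limma). It rose by 0.63 in log2 fold change (adjusted p = 4.96e-07 in the authors' deposited table). Rpl10a-ps1, on chromosome 1, was at 254 and 231 in WT and at 123 and 193 in SmoM2, and fell (log2 fold change -0.69, adjusted p = 5.25e-07 in the authors' deposited table). Added together, the 2 loci read 594 and 499 in WT and 647 and 659 in SmoM2, a log2 difference of 0.26 in place of 0.71. The parent's share of the sum was 57.3% and 53.8% in WT and 80.9% and 70.7% in SmoM2. The combined level was thus still higher in both SmoM2 samples, by less than the level assigned to Rpl10a alone.

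Rps16 and its copy Rps16-ps2, which shares all 438 coding bases, were both higher. Their sum was 588 and 450 in WT and 648 and 666 in SmoM2, without overlap, although the groups of Rps16 alone overlapped. The log2 difference was 0.35 for the sum and 0.16 for Rps16. The separate values of Rpl10a, Rps16, Rps27rt and Rpl37rt are uncertain for this reason. No search for copies of the other members was made, so their values may have the same limit. Without these 4 genes, 23 of 25 cytosolic genes were higher and 8 rose, and Rpl5 and Rpl22l1 were lower.

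**Figure D2:**
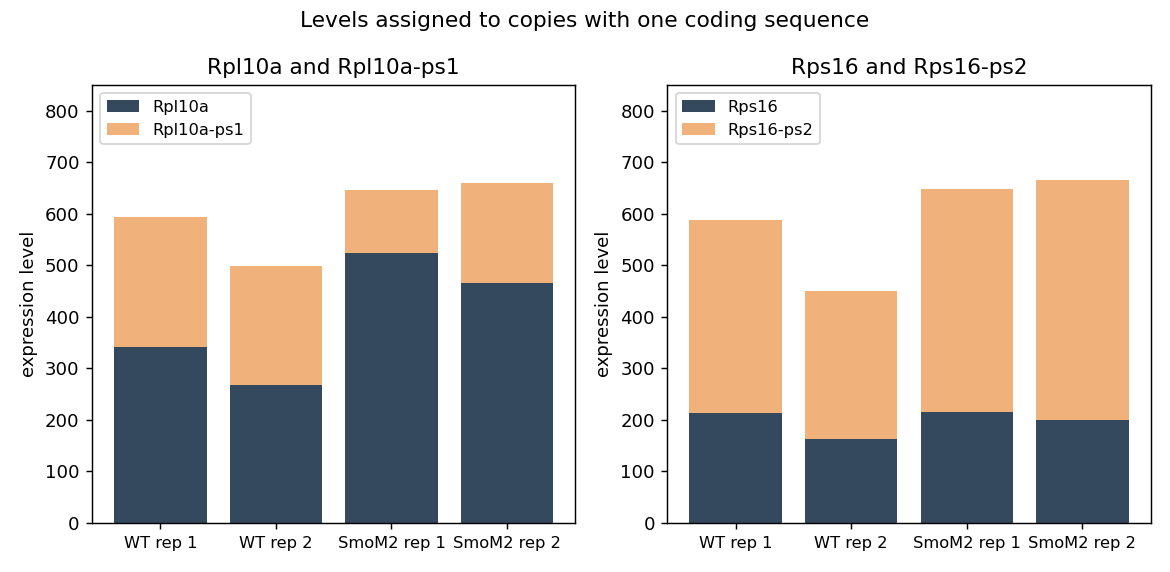
Stacked bars give the expression level that the deposited table assigns to a ribosomal protein gene (dark) and to its processed pseudogene with the same coding sequence (light), with 1 bar per sample. The part of the bar held by Rpl10a grew from 57.3% and 53.8% in WT to 80.9% and 70.7% in SmoM2, while that of Rps16 went from 36.2% and 36.1% to 33.2% and 30.0%.

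The mitochondrial large subunit had 6 members in the table, of which 5 were lower in SmoM2 and none passed. Mrpl48 had the tightest values, at 75.6 and 75.0 in WT and at 57.2 and 57.9 in SmoM2. The log2 difference was -0.38 ± 0.09 (SE, limma), with an adjusted p = 0.0869 in the authors' deposited table. Each group was narrow and the groups were apart. A pseudogene, Mrpl48-ps, shares 621 of 633 coding bases with it, and the sum of both loci gave -0.31. Mrpl20, the member of highest level, read 250 and 222 in WT and 197 and 214 in SmoM2, a log2 difference of -0.20 that went to -0.11 without WT replicate 1. Mrpl32, which a mitochondrial protease must cut before it can enter the ribosome, had the lowest log2 fold change of the 12, -0.45 (adjusted p = 0.112 in the authors' deposited table), with 34.8 and 40.5 in WT and 23.5 and 28.2 in SmoM2. Mrpl39 and Mrpl50 were lower in both SmoM2 samples, by -0.34 and -0.32 in the authors' deposited table.

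Mrpl54 was the exception in the large subunit. It read 64.4 and 49.3 in WT and 84.2 and 88.7 in SmoM2, a log2 difference of 0.61 ± 0.14 (SE, limma), and it did not pass either (adjusted p = 0.0652 in the authors' deposited table). In the mitochondrial small subunit 3 of 6 members were higher and 3 lower. Mrps24 rose, from 86.1 and 79.8 in WT to 122 and 132 in SmoM2. Its log2 difference was 0.61 ± 0.10 (SE, limma; adjusted p = 0.0153 in the authors' deposited table), and both SmoM2 samples were far above both WT samples. Mrps34 and Mrps26 were higher without passing, with Mrps34 at 113 and 109 in WT and at 130 and 147 in SmoM2. Mrps33 was lower, at 106 and 117 in WT and at 99.2 and 94.9 in SmoM2, a log2 difference of -0.20 that went to -0.13 without WT replicate 2 and to -0.31 with quantile normalization. Mrps9 was at 41.3 and 43.0 in WT and at 33.2 and 35.7 in SmoM2 without passing, and the groups of Mrps14 overlapped.

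The direction of a member went with the share of G and C in its coding sequence, in both ribosomes. The 4 mitochondrial genes that were higher had a coding GC content from 60.7% to 64.2%, and the 8 that were lower had 45.9% to 53.5%. Among cytosolic genes with an annotated coding sequence, the 24 that were higher had a median of 56.8% (49.0% to 61.6%), and the 3 that were lower, Rpl22l1, Rpl5 and Rps27rt, had 39.9%, 46.0% and 50.8%. By GC content of the whole transcript the mitochondrial genes did not separate. Mrps26, which was higher, had 49.2%, below Mrpl20 (52.5%) and Mrps9 (49.7%), which were lower. To show the contrast, bases 91 to 180 of the coding sequence are given for the members of highest and lowest coding GC content in each ribosome, from the same transcripts, with G and C in capitals.
Rpl36, higher: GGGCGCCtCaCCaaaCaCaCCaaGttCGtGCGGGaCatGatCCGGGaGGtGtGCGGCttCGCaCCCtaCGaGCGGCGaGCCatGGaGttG
Rpl22l1, lower: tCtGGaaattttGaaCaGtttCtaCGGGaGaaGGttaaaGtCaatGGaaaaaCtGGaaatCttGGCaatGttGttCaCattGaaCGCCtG
Mrps26, higher: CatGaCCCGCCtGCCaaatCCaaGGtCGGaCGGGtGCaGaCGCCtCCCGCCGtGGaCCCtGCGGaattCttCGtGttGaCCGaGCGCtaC
Mrpl50, lower: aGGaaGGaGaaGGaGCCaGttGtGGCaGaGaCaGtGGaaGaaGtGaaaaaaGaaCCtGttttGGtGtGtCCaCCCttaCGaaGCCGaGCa

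These stretches hold 58 G or C of 90 bases in Rpl36, 35 in Rpl22l1, 58 in Mrps26 and 45 in Mrpl50. The same relation ran through the whole table. Of listed genes outside the ribosomal set, split into 5 equal bins of coding GC content, 3.5% were higher in SmoM2 in the lowest bin and 93.2% in the highest, with 19.5%, 63.6% and 87.9% in the bins between. In the second bin from below, 3 of 4 cytosolic genes (Rps20, Rps23 and Rpl23a) were higher and all 6 mitochondrial genes were lower. All 8 cytosolic genes of the third bin and all 12 of the fourth were higher. Across 39 members the authors' log2 fold change and coding GC content had a Pearson r of 0.72 and a Spearman rho of 0.60, given as a description because the members share the same 4 libraries. Within the 27 cytosolic genes r was 0.66 and rho 0.335, and within the 12 mitochondrial genes 0.91 and 0.78. With transcript GC content r and rho were 0.66 and 0.43 in 29 cytosolic genes, and 0.79 and 0.64 in the 12 mitochondrial genes.

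**Figure D3:**
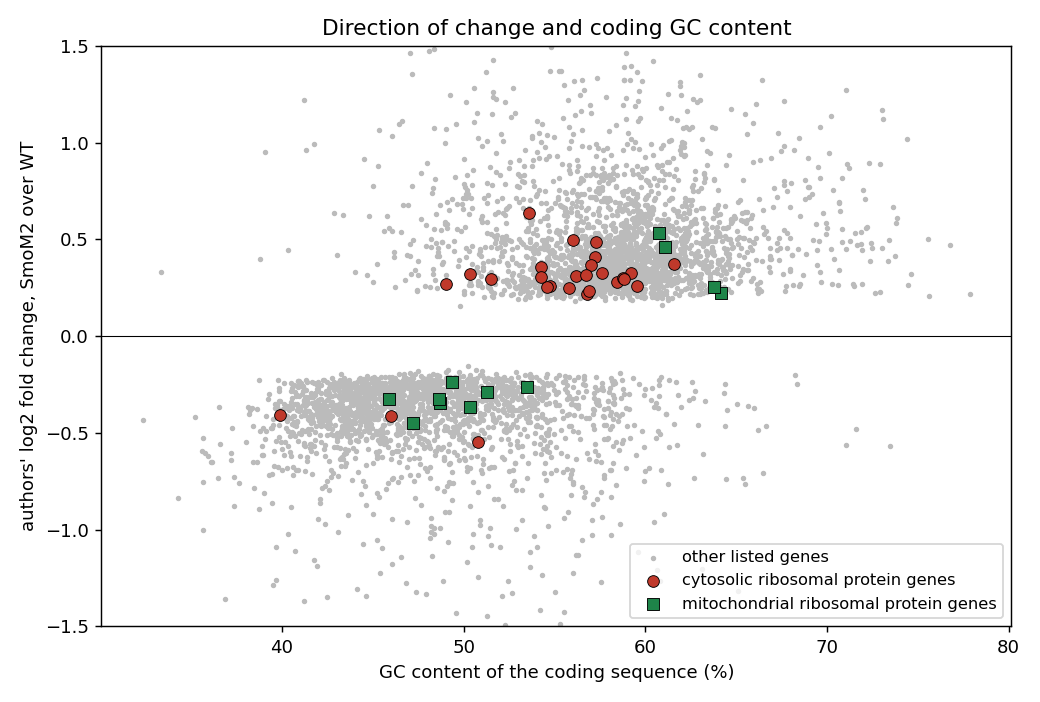
Each point is 1 listed gene with a mean level of at least 1, placed by the GC content of its coding sequence (%) and the authors' log2 fold change of SmoM2 over WT; circles are cytosolic and squares mitochondrial ribosomal protein genes, and 91 of the 4462 other genes lie beyond the vertical range of 1.5. The empty band around 0 is the authors' selection by p-value, and the squares fall into a group above 60% GC that was higher and a group of at most 53.5% that was lower.

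Along transcript GC content, the median log2 difference between SmoM2 and WT in the genes outside the set ran from -0.28 in the lowest of 5 bins to 0.48 in the highest. Between the 2 WT samples it lay between -0.17 and -0.01, and between the 2 SmoM2 samples between -0.05 and 0.09. When the smoothed trend along transcript GC content was subtracted, a setting chosen after the data were seen, 20 of 29 cytosolic genes stood above it by a median of 0.09 over all 29, where the uncorrected median was 0.37. Of the 12 mitochondrial genes 5 stood above it, with a median of -0.09. With the authors' log2 fold changes in place of the level differences, 16 of 29 cytosolic genes stood above their trend, by a median of 0.006. Rps4l, Rplp0 and Mrps24 stood 0.41, 0.36 and 0.26 above the trend by level, and 0.34, 0.28 and 0.13 by the authors' log2 fold changes, and Rpl36 was below it by either. Rpl10a alone stood 0.34 above the trend by level, but the 0.26 of the sum with its copy lies below the 0.37 of the trend at that GC content. The trend itself was drawn through genes selected for their difference on these samples. At middle GC content the trend of the authors' values ran through the band without listed genes, at -0.05 for Rpl23a and 0.04 for Rpsa. A listed gene of positive log2 fold change stood above it there by its sign alone. For Rps20 and Rps23 the trend was negative, at -0.38 and -0.24. Standing above the trend is therefore partly set by listing and sign, and the counts above it are a description. Transcript length and log2 fold change had a Pearson r of -0.01 and a Spearman rho of -0.03 over the 29 cytosolic genes, and -0.34 and -0.56 over the 12 mitochondrial genes.

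Other genes of ribosome production were listed in both directions. Beside the counts of the gene lists that follow, 22.0% of listed genes whose mean level reached 1 rose and 16.9% fell. These lists were not matched for GC content, along which direction ran over the whole table. Of 8 ribosomal protein genes whose symbols the name rule does not catch, 2 had a row and both were higher. Rack1, a scaffold on the head of the small subunit, rose from 324 and 285 in WT to 399 and 436 in SmoM2 (adjusted p = 0.0244 in the authors' deposited table). Of 14 other genes whose messages have the terminal oligopyrimidine start, 5 had a row, 4 higher and 1 lower. Eef2, the elongation factor that moves the ribosome along, rose from 718 and 702 to 960 and 952, and Eif3e, an initiation factor subunit, fell from 102 and 114 to 87.3 and 85.5. Ribosome assembly genes had 16 of 53 with a row, 7 higher and 9 lower. Bop1, needed for large subunit RNA processing, rose (log2 fold change 0.38 in the authors' deposited table), and Nmd3, the export adaptor of the large subunit, fell (-0.56). The log2 difference of Nmd3 went from -0.58 to -0.37 without SmoM2 replicate 2.

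In the list for mTOR and Myc, upstream of ribosome output, 6 of 17 had a row, 5 were higher and 3 rose. Of all listed genes whose mean level reached 1, 52.5% were higher and 22.0% rose. By coding GC content, 3.5% of genes outside the ribosomal set were higher in the lowest bin and 93.2% in the highest. How far the direction of the mTOR and Myc genes goes with GC content was not tested. Myc, which switches on ribosome production genes, was at 7.88 and 9.86 in WT and at 14.2 and 14.7 in SmoM2 (log2 fold change 0.84, adjusted p = 6.52e-04 in the authors' deposited table). Mycn was at 12.8 and 12.7 in WT and at 18.9 and 17.5 in SmoM2, and Akt1 at 104 and 113 and at 148 and 155. These 3 genes stood apart between the groups in every sample. Mitochondrial translation and assembly genes had 4 of 32 with a row, 2 higher and 2 lower by the authors' log2 fold change. Mtif2, an initiation factor, fell in the authors' deposited table (-0.45, adjusted p = 0.0381). Its levels of 17.2 and 18.4 in WT and 17.2 and 17.0 in SmoM2, however, gave a log2 difference of -0.06 ± 0.12 (SE, limma). That difference was -0.01 without WT replicate 2, -0.10 without WT replicate 1 and -0.15 with quantile normalization.

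The genes that the mitochondrial ribosome translates, and its own RNAs, mostly fell. Of 15 genes of the mitochondrial genome 13 had a row, 11 fell and 1, mt-Co2, rose, and the median of their log2 fold changes was -0.64 in the authors' deposited table. mt-Rnr1, the small ribosomal RNA of the mitochondrion, was at 5604 and 4025 in WT and at 2635 and 2550 in SmoM2, and mt-Rnr2, the large one, at 3441 and 2699 and at 1780 and 1569. mt-Nd6 was at 3349 and 3802 in WT and at 2414 and 1771 in SmoM2. In each of these 3 both SmoM2 samples were below both WT samples. Whether library preparation kept or removed ribosomal RNA is not stated.

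Markers of several cell types moved between the same groups. All 10 mature oligodendrocyte markers fell, with summed levels of 6185 and 5815 in WT and 2960 and 3330 in SmoM2. Red blood cell genes fell in 5 of 5, from sums of 662 and 450 to 65.6 and 120, and choroid plexus genes in 4 of the 5 with a row, from 1219 and 1183 to 75.1 and 628. Leptomeningeal fibroblast genes rose in all 7 with a row, of 8, from 45.4 and 35.8 to 96.5 and 85.3. Of 6 oligodendrocyte precursor markers 5 had a row, all higher, and 2 rose. The astrocyte, neuron, microglia and endothelial lists had 3 of 6, 4 of 8, 4 of 6 and 5 of 6 genes with a row. Among them 2 astrocyte, 1 neuron, 0 microglia and 3 endothelial genes rose, and 1, 2, 1 and 1 fell. No listed marker was at 0 in all samples. WT replicate 2, the lowest sample for most cytosolic ribosomal protein genes, was the lowest in 1 of the 9 marker sums, that of the fibroblast genes. The part of these cell types in the ribosomal protein results was not tested.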

How the data were processed

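RNA from 2 SmoM2 and 2 WT samples (1 ug of total RNA each) was made into TruSeq libraries, per the labels' protocols. The build GRCm38.p6 and the tools RSEM and DESeq2 appear, with neither role nor version, per the submitters' processing notes, and no aligner is named there. The deposited table gives a per-sample expression signal, judged from its values to be scaled for length and library size. It also gives the authors' group means, fold change (a ratio), log2 fold change, p-value and adjusted p. Columns were tied to samples by the series text.

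limma 3.58.1 (R 4.3.3) with a mean-variance trend was fitted to log2(level + 1) of the 4845 genes whose mean level reached 1, on all 4 samples, and gave differences and SE on that scale, which understates changes of low genes. The limma fit was also run on simulated data with independent noise of SD 0.15 and no selection by p. That run does not bear on selected genes, on differences shared by many genes between replicates, or on the adjustment used here. The fit to the real data used only genes that the authors had selected by p on the same samples, so its differences and SE carry that selection. Its p-values were adjusted over 57010 tests, since the authors' adjusted p equals p times 57010 over its rank. The ranks of the limma p-values were taken among the 4845 fitted genes only, which can only raise the adjusted p. Depth is unknown. GC content, length and coordinates come from GENCODE M21, for the transcript with the longest coding sequence per gene; the GC trend was a lowess curve with a span of 0.3. Copies were compared by local alignment, only for pairs of genes picked by name.

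Members and lists were chosen with earlier results of these data known. Named were, per subunit, called members with separate groups (up to 8 by absolute log2 fold change), the 3 of highest level, called members against the main direction, and a list of well-studied members; per gene list, up to 3 called genes. Other members, Smo, mt-Co2 and the pseudogenes were named after their values were seen. Some genes that enter the fits and counts are not reported here by name. Alternatives were the pseudocount, scaling, level filter, p threshold, test, a replicate block and each sample left out.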

Additional observations from a re-analysis of the deposited data

How the results depend on the processing

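With limma in place of the authors' test no member was called in either ribosome (0 of 41 at an adjusted p of at most 0.05, lowest adjusted p 0.253; 6 genes were called in the whole table). For this adjustment p-values were multiplied by all tests but ranked among the listed genes only. Unlisted genes with a small limma p are missing from the ranks, so the adjusted p can only be too high. The 0 of 41 therefore does not decide whether the members differ. At an unadjusted p of at most 0.05, limma gave 22 of 29 cytosolic (21 higher, 1 lower) and 7 of 12 mitochondrial members, beside 55.5% of listed genes, which the authors had selected by p on the same samples. The cytosolic number was 11 (10 higher, 1 lower) with quantile normalization and 9 (6 higher, 3 lower) with equal medians, and from 8 to 24 with 1 sample left out. With any 1 sample left out limma called 0 to 0 members, and the lone sample of a group is then taken to vary like the others. At a threshold of 0.01 in the authors' deposited table, 6 cytosolic members rose, and 0 cytosolic members fell and 0 mitochondrial members rose in place of 1 each. Replicate numbers are shared between groups, but the labels do not say that they mark a shared litter or day, and the deviations of same-numbered samples correlated at -0.093 over 4845 genes and at 0.171 over the 41 members. With the replicate number as a block, limma again called 0 members, and 20 genes in the whole table.

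The number of cytosolic members lower by level was 3, and from 3 to 5 with 1 sample left out (5 without WT replicate 2). After subtraction of the GC trend it was 9, and the median log2 difference went from 0.37 to 0.0862. That 9 is partly set by listing and sign, as described for the trend. Quantile normalization moved the median of all listed genes by -0.13, and the cytosolic median to 0.24 and the mitochondrial median from -0.20 to -0.30. Leaving out 1 sample gave 0.26 to 0.49 for the cytosolic and -0.22 to -0.13 for the mitochondrial median, and the 8 mitochondrial members lower by level stayed 8. Of the log2 differences of 34 genes chosen by rule, quantile normalization moved 17 and equal medians 11 by more than the spread between replicates, and no gene that rose or fell changed sign under either. With quantile normalization Rpl13 went to 0.16, Rpl23a to 0.17, Mrps34 to 0.19 and Eef2 to 0.24.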

Other observations

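Of 9 listed loci named as ribosomal protein pseudogenes, 7 were higher in SmoM2, 4 rose and 2 fell in the authors' deposited table. Among listed genes whose mean level reached 1, 22.0% rose and 16.9% fell. No minimum level was applied to these loci. Rps6-ps4, 1 of the 4, was at 0 in both WT samples and at 0 and 3.84 in SmoM2, so its rise rests on SmoM2 replicate 2. Rps13-ps1 was at 49.0 and 30.8 in WT and at 123 and 88.5 in SmoM2, a log2 fold change of 1.32 (adjusted p = 7.79e-09 in the authors' deposited table), while Rps13 had no row. Rpl10-ps3, which GENCODE M21 classes as protein coding despite its name, rose from 390 and 319 to 484 and 486. Rpl27-ps3 was at 271 and 248 in WT and at 299 and 40.01 in SmoM2, so its fall rests on SmoM2 replicate 2. Mrpl48-ps was listed at 0 in both WT samples and at 3.61 and 2.36 in SmoM2, while Mrpl48, with 621 of 633 coding bases in common, was lower; their sum was 75.6 and 75.0 in WT and 60.9 and 60.2 in SmoM2.

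Genes of the S6 kinases and their relatives, only some of which phosphorylate the ribosomal protein Rps6, had 5 listed members. Rps6ka4 rose from 20.3 and 19.6 to 27.7 and 24.7, and Rps6ka1 and Rps6ka2 were higher without passing. Rps6kb1, the S6 kinase downstream of mTOR, was at 15.7 and 25.4 in WT and at 21.6 and 16.9 in SmoM2, so that its groups overlapped.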
